A study of Mus musculus with 4 samples.

Results

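The miRNAs of macrophages that lack miR-146a were compared with those of wild-type macrophages, 1 knock-out library (KO) against 2 wild-type libraries (WT A and WT B), which are 3 of the 4 libraries of the series. Members were chosen by group: the columns of these libraries in the deposited table, with 1 line kept for each mature miRNA, that with the highest summed count. This gave 1979 miRNAs, of which 251 had a mean of at least 10 reads per 1000000 counts (RPM) over the 4 libraries and are called expressed below. The cells were bone marrow-derived macrophages (BMDMs), grown in plastic dishes from marrow of 129/B6 mixed mice aged 6 to 7 months, at 85000 cells per cm2 with M-CSF at 10 ng/mL for 8 to 9 days. They were harvested resting, 16 h after a change to medium free of LPS. WT animals carried the wild-type mir-146a gene, and KO animals carried an allele from which the mir-146a precursor sequence had been removed by homologous recombination in V6.5 embryonic stem cells. A line of mice made from such a clone was crossed to C57BL6/J, and the labels name 3 mice per genotype without saying whether a library pools them. The remaining library, 3′F, came from mice in which the 3′ part of the miR-146a duplex was swapped between strands, and it is given here only beside KO. All values are from bulk RNA, in which fewer cells of a type and less RNA per cell cannot be told apart. WT animals in the study were bred from heterozygotes of both mutant lines, which were kept apart, and which line WT A or WT B came from is not given in the sources used here.

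A miRNA is cut as a duplex from a hairpin, and 1 of the strands, the 5p or the 3p arm, usually dominates. Bases 2 to 8 of the loaded strand, the seed, govern most target recognition, so that miRNAs with a common seed form a family. Hairpins transcribed together form a cluster, whose products can belong to different families. In macrophages miR-146a is known as an inducible brake on Toll-like receptor and NF-κB signaling, acting on the kinase Irak1 and the adaptor Traf6.

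The mature sequences that matter for the groups below were taken from RefSeq (GRCm38.p6), which held 228 of the 251 expressed miRNAs, and are shown with the seed in capitals. The first set is the deleted miRNA, its family partner, and members of the 3 seed families that the clusters higher in KO draw on. Counted from 1 at the 5′ end, the changes from miR-146a-5p to miR-146b-5p are G18A and U21C. Relative to let-7a-5p, let-7c-5p carries A19G and let-7e-5p carries U9G, and miR-100-5p carries U16A relative to miR-99a-5p, so that these miRNAs are separated in a read by 1 base.
miR-146a-5p: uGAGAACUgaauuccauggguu
miR-146b-5p: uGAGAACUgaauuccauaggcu
let-7a-5p: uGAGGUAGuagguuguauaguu
let-7c-5p: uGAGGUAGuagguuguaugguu
let-7e-5p: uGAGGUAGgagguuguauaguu
miR-99a-5p: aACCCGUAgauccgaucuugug
miR-99b-5p: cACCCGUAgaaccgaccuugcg
miR-100-5p: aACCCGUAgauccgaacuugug
miR-125a-5p: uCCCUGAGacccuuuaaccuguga
miR-125b-5p: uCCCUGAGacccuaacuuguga

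The next set is chosen from the products outside those families that were past 1.5-fold in KO, 5 of the higher ones first, followed by lower ones with the partners that share their seed. The seed of miR-132-3p is also that of miR-212-3p, and the seed of miR-200b-3p is also that of miR-429-3p and miR-200c-3p.
miR-298-5p: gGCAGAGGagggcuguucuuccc
miR-139-5p: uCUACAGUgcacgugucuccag
miR-139-3p: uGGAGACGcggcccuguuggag
miR-582-3p: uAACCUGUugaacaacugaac
miR-152-3p: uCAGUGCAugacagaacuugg
miR-132-3p: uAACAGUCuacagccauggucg
miR-212-3p: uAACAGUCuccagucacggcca
miR-212-5p: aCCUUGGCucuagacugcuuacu
miR-200b-3p: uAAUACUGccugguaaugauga
miR-429-3p: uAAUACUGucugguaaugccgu
miR-200c-3p: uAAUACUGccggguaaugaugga
miR-342-3p: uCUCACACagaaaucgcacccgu

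The counts totaled 17073442 for WT A, 11410940 for WT B and 19087640 for KO, so that 3 counts corresponded to 0.176, 0.263 and 0.157 RPM. The deleted miRNA was examined first. Its hairpin lies on the minus strand at chr11:43374397-43374461 (GRCm38.p6), with no annotated gene around it on that strand. MiR-146a-5p was at 6253 RPM in WT A, 5485 RPM in WT B and 13.4 RPM in KO, a log2 ratio of -8.66, and miR-146a-3p had 8, 3 and 0 counts. The remaining 256.5 counts of miR-146a-5p in KO are not a whole number, as is also the case for miR-146b-5p, and which reads they stand for was not tested. MiR-146b-5p, from a hairpin in an intron of Mfsd13a at chr19:46342762-46342870, was at 1558 RPM in WT A, 1916 RPM in WT B and 4410.0 RPM in KO. The other arm, miR-146b-3p, was at 2.40, 3.33 and 8.96 RPM, with log2 ratios of 1.35 for the 5p and 1.38 for the 3p arm. The RPM of both family members summed to 7811 RPM in WT A, 7401 RPM in WT B and 4423 RPM in KO. The ligation steps of library making are known to favor some sequences over others, so that a sum or an order of levels over different miRNAs depends on weights not measured here, while the ratio of 1 miRNA between libraries is less exposed to them.

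Ratios throughout are differences of log2(RPM + 1), KO against the mean of the 2 WT values, and for miRNAs of low level they come out too small. Expressed miRNAs for which KO exceeded both WT values by 1.5-fold or more were counted as higher, and those at least as far under both as lower. With 1 KO library there is no replicate of the knock-out, no test was made, and the distance between WT A and WT B serves as the only measure of spread. By this rule 12 of 251 expressed miRNAs (4.78%) were higher in KO and 15 of 251 (5.98%) were lower. Between WT A and WT B, 9 of 251 (3.59%) lay as far apart in either direction. The latter is a distance between single libraries, a looser rule than being past both WT libraries. Without WT A the counts were 19 higher and 24 lower, and without WT B 22 higher and 21 lower. Set against the same WT libraries, 3′F was higher for 1 of 251 (0.398%) and lower for 5 of 251 (1.99%). At any distance, KO lay above both WT libraries for 95 of 251 miRNAs (37.8%), below both for 99 of 251 (39.4%) and between them for 57. The KO ratios had a median of 0.01 and quartiles of -0.27 and 0.22. Other scalings shifted all KO ratios by -0.06 to 0.04, a distance that exceeds the ratio of let-7i-5p below. The WT B over WT A ratios had a median of 0.07 and quartiles of -0.09 and 0.24. Among the 60 miRNAs above 1000 RPM in WT the median size of the ratio was 0.17 for KO and 0.15 for the WT pair. Among the 127 below 100 RPM it was 0.29 and 0.18. The KO ratio is taken against a mean of 2 libraries and the WT ratio between single libraries, so these sizes are not strictly alike. Most of the miRNAs past the threshold were of low level, since 8 of the 12 higher and 11 of the 15 lower were below 100 RPM in WT. Counting error was small beside these differences, its standard error on the log2 scale being at most 0.17 for any of the 27. It does not cover the variation between cultures. Of the 27, miR-125a-5p, miR-152-3p, miR-132-3p, miR-342-3p and miR-429-3p fell short of 1.5-fold under at least 1 other scaling or pseudocount.

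**Figure D1:**
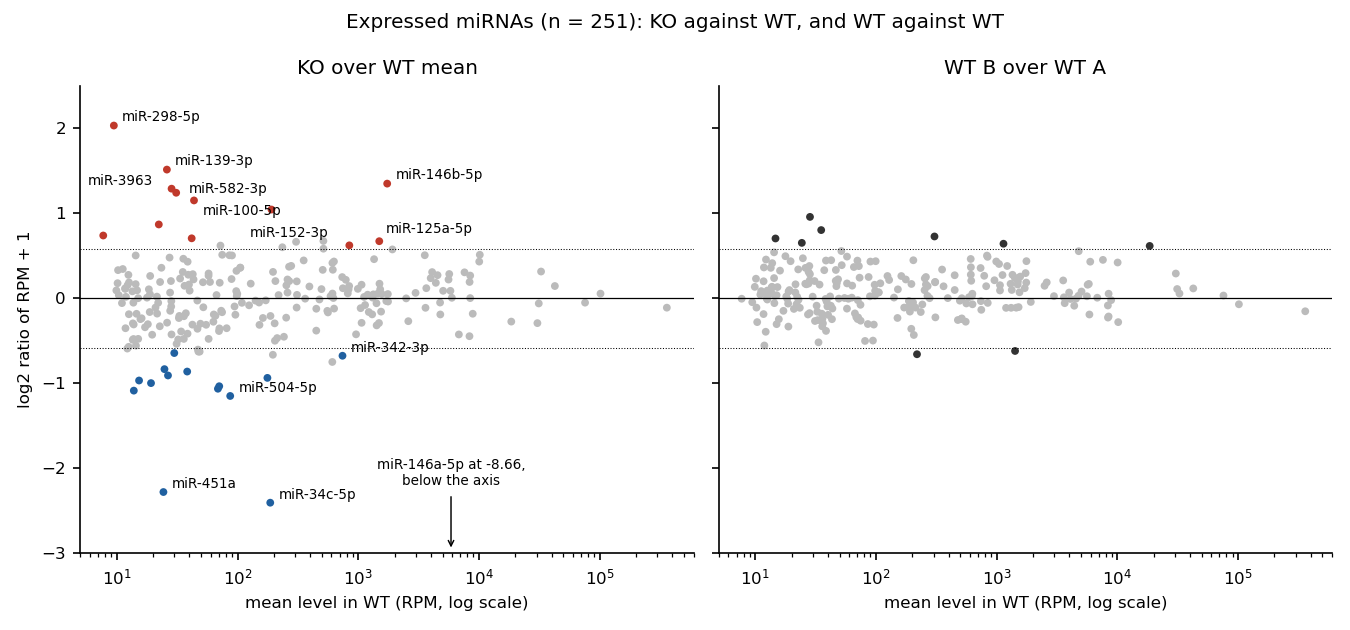
Each point is 1 of the 251 expressed miRNAs, with its mean WT level in RPM on a log axis and, on the vertical axis, the log2 ratio of KO over the WT mean (left) or of WT B over WT A (right). Dotted lines mark 1.5-fold; red and blue points are at least 1.5-fold above or below both WT libraries, black points mark WT libraries 1.5-fold apart, and miR-146a-5p at -8.66 lies below the axis.

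Outside the miR-146 products, a moderate shift ran through clusters that pair a miR-99 family member with a let-7 member. These are related by descent and encode the miR-99/100, let-7 and miR-125 families, which are known to curb growth pathways (miR-99/100 acts on the mTOR kinase) and to be tied to blood cell development. On chromosome 17, let-7e and miR-125a lie on the plus strand at chr17:17830352-17830879 within Spaca6, beside miR-99b. On chromosome 16, miR-99a and let-7c-1 lie at chr16:77598936-77599750 in an intron of the noncoding gene Mir99ahg. On chromosome 9, miR-100 and let-7a-2 lie at chr9:41531425-41536811, in introns of noncoding genes. The 3 clusters had 11 expressed products, and 11 of 11 lay above both WT libraries in KO, beside 37.8% of all expressed miRNAs, with ratios from 0.27 to 1.15 and a median of 0.58. The clusters were chosen with earlier results of these data known. The median of WT B over WT A for these products was 0.02, and that of 3′F, against the same WT libraries, was 0.22. The WT B over WT A ratios went both ways, from -0.28 for miR-99b-5p to 0.42 for let-7a-5p. The products are not independent observations, since they share transcripts. Of the 11, 8 had counts that were not whole, beside 99 of all 251 expressed miRNAs.

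In the chromosome 17 cluster both arms of all 3 hairpins lay above both WT libraries, beside 37.8% of all expressed miRNAs. Let-7e-3p and both arms of miR-125a were past 1.5-fold, beside 4.78% of all expressed miRNAs. MiR-125a-5p fell short of it under at least 1 other scaling or pseudocount. MiR-99b-5p was at 11142 RPM in WT A, 9185 RPM in WT B and 14446 RPM in KO. Let-7e-5p was at 1945 RPM in WT A, 1891 RPM in WT B and 2861 RPM in KO, and let-7e-3p at 22.1, 22.4 and 41.5 RPM. KO stood above both WT libraries in each, and the WT libraries of the let-7e arms were nearly level. MiR-125a-5p was at 1409 RPM in WT A, 1578 RPM in WT B and 2379 RPM in KO, and miR-125a-3p at 41.4, 42.1 and 68.7 RPM. The ratios ran from 0.43 for miR-99b-3p to 0.87 for let-7e-3p, with a cluster median of 0.63 and a median between the WT libraries, B over A, of 0.02. The 3′F library, whose ratio rests on the same WT libraries, had a median of 0.26 for this cluster.

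On chromosome 9, miR-100-5p was at 45.4 RPM in WT A, 41.8 RPM in WT B and 98.1 RPM in KO, a log2 ratio of 1.15 and the largest among the products of the 3 clusters. Its neighbor let-7a-5p was at 8589.6 RPM in WT A, 11517 RPM in WT B and 13433 RPM in KO. Here the WT libraries themselves differed by 0.42 on the log2 scale, nearly as much as KO differed from their mean (0.43). Let-7a-5p is also made from other loci, the values given are those of its let-7a-1 line, and its reads cannot be assigned to this locus. On chromosome 16, miR-99a-5p was at 9083 RPM in WT A, 7840.4 RPM in WT B and 10170.0 RPM in KO, a ratio of 0.27, and its WT libraries differed by -0.21. Let-7c-5p, which let-7c-2 on chromosome 15 also makes, was at 3255 RPM in WT A, 3769 RPM in WT B and 4987 RPM in KO in the line of this locus, and let-7c-1-3p, which belongs to this locus alone, was at 62.6, 81.8 and 111 RPM.

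**Figure D2:**
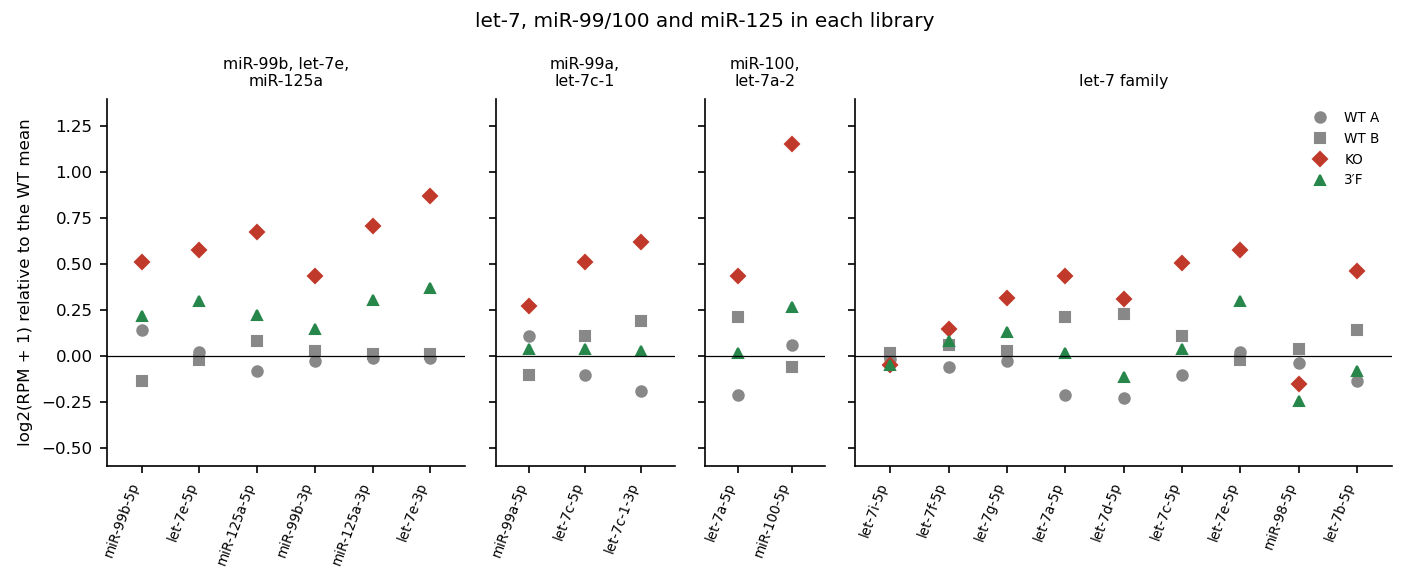
Level of each expressed product relative to the WT mean, in log2(RPM + 1), for the 3 clusters and for the let-7 family, with 1 point per library. KO lies above both WT points for 11 of 11 cluster products and for 7 of 9 let-7 family members, and below them for let-7i-5p and miR-98-5p.

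The let-7 family, whose members restrain proliferation and are held down in stem cells by Lin28, showed how unequal the shift was within 1 seed. Of 9 expressed members 7 lay above both WT libraries and 2 below, beside 37.8% and 39.4% of all expressed miRNAs. Among the 7 above, let-7e-5p (0.58), let-7c-5p (0.51), let-7b-5p (0.46) and let-7g-5p (0.32) had the ratios least matched by the WT pair. The WT pair's own ratios for these were -0.04, 0.21, 0.28 and 0.06. For let-7d-5p the WT pair differed by more (0.45) than KO did from its mean (0.31). The most abundant member, let-7i-5p, was at 74790.5 RPM in WT A, 76588 RPM in WT B and 73136 RPM in KO, and the X-linked miR-98-5p was at 1507 RPM in WT A, 1585 RPM in WT B and 1388 RPM in KO. Summed, the family stood at 170613 RPM in WT A, 183303 RPM in WT B and 194765 RPM in KO, a ratio of 0.14 beside 0.10 between the WT libraries. No let-7 5p product passed 1.5-fold. The cluster of let-7b and let-7c-2 on chromosome 15 had a median of 0.41, but its let-7b-3p product lay between the WT libraries, and its let-7c-2-3p has the same sequence as let-7a-1-3p.

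The miR-125 family, homologs of the founding lin-4 miRNA that act in hematopoietic progenitors, was the only 1 of 23 families (4.35%) whose sum was above both WT libraries by at least 0.32 on the log2 scale, the threshold used for groups, at 2622 RPM in WT A, 3076 RPM in WT B and 4069 RPM in KO. MiR-125b-5p, made on chromosomes 9 and 16 near the clusters above, was at 514 RPM in WT A, 515 RPM in WT B and 773 RPM in KO, a ratio of 0.59 with the WT libraries level at 0.00. The more distant member miR-351-5p lay between the WT libraries at 699, 982 and 917 RPM in the same order. The miR-99/100 sum was at 20270.5 RPM in WT A, 17067 RPM in WT B and 24714 RPM in KO, a ratio of 0.41, and KO exceeded the nearer library by 0.29, short of that threshold.

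Below both WT libraries by that much were 3 of 23 family sums (13%), those of miR-146, of miR-34 with miR-449, and of miR-132 with miR-212. The WT libraries lay that far apart for 2 of 23 (8.7%), the families of miR-25 and of miR-221. In all 4 families were past the threshold in KO, and 9 were without WT A. Of 24 clusters with at least 2 expressed products, 4 had a median that far above both WT libraries (16.7%), 1 of which, that of let-7b with let-7c-2, fell short under another scaling, and 2 that far below (8.33%). The WT libraries were that far apart in 1 of 24 (4.17%). The 4 higher clusters were the 3 above and that of let-7b with let-7c-2, of which 2 count let-7c-5p, and another pair of let-7 clusters, that of let-7a-1, let-7f-1 and let-7d (0.23) and that of miR-98 with let-7f-2 (0.15), did not pass. The 2 lower were that of miR-132 with miR-212 and that of miR-29b-2 with miR-29c. The latter cluster median rests on miR-29b-3p (-0.48) and miR-29c-5p (-0.48), while miR-29c-3p, just under the expression minimum, had a ratio of 0.03. MiR-29b-3p is also made from mir-29b-1, and the arm specific to this locus, miR-29b-2-5p, was at 3.92, 4.47 and 4.66 RPM in WT A, WT B and KO, under the expression minimum and above both WT libraries in KO.

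**Figure D3:**
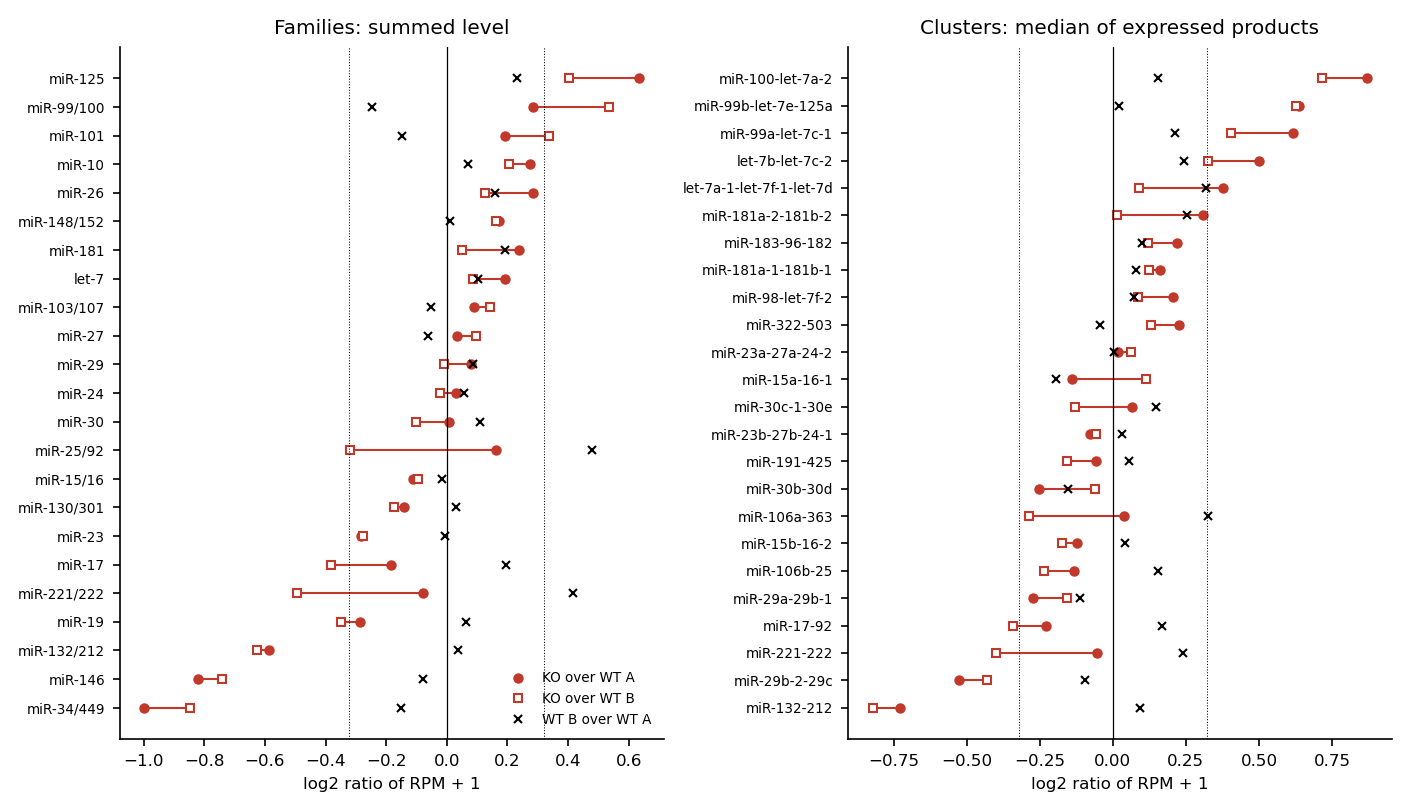
Log2 ratios of the summed RPM of 23 families (left) and median log2 ratios over the expressed products of 24 clusters (right), for KO over WT A (filled circles), KO over WT B (open squares) and WT B over WT A (crosses). Dotted lines mark 0.32 to either side; both KO marks pass them for miR-125 on the high side and for the miR-34, miR-146 and miR-132 families on the low side.

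Several single hairpins were higher in KO. MiR-298-5p was at 9.61 RPM in WT A, 9.29 RPM in WT B and 41.8 RPM in KO, the highest ratio of the 251 expressed miRNAs at 2.03, and the 95% Wilson interval for its KO level was 39.0 to 44.8 RPM. In 3′F it was at 14.6 RPM, also above both WT libraries, with a ratio of 0.58. Its neighbor miR-296, 379 bp away on the minus strand of chromosome 2, was under the expression minimum and also higher, with miR-296-5p at 0.880, 1.31 and 5.29 RPM and miR-296-3p at 3.34, 5.08 and 8.23 RPM in WT A, WT B and KO. The sum over both hairpins was 13.8 RPM in WT A, 15.7 RPM in WT B and 55.3 RPM in KO, beside 22.8 RPM in 3′F. Both arms of miR-139, encoded in an intron of the phosphodiesterase gene Pde2a at chr7:101475376-101475443, were past 1.5-fold. MiR-139-5p was at 201 RPM in WT A, 181 RPM in WT B and 395 RPM in KO, and miR-139-3p was at 24.4 RPM in WT A, 27.6 RPM in WT B and 76.1 RPM in KO. In 3′F these arms were at 198 and 25.9 RPM, within the WT range. MiR-582-3p, from an intron of another phosphodiesterase gene, Pde4d, at chr13:109324744-109324824, was at 28.8 RPM in WT A, 33.3 RPM in WT B and 74.7 RPM in KO, and its low 5p arm was at 1.99, 1.67 and 4.40 RPM.

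MiR-152-3p, in an intron of Copz2, was at 859 RPM in WT A, 828 RPM in WT B and 1301 RPM in KO. It shares its seed with miR-148a-3p and miR-148b-3p, a family known for acting on the DNA methyltransferase Dnmt1, and these were at 4712, 4816 and 4607 RPM and 4544, 4535 and 5488 RPM. The 3 members thus had ratios of 0.62, -0.05 and 0.27, and the sum moved by 0.17. The 2 remaining miRNAs past 1.5-fold were of low or unsteady level. MiR-7043-3p was at 7.73 RPM in WT A, 7.71 RPM in WT B and 13.6 RPM in KO, and it alone of the 27 reached the expression minimum only with the KO library counted. MiR-3963 was at 18.98 RPM in WT A, 37.9 RPM in WT B and 67.2 RPM in KO. Its WT libraries themselves differed by 0.96 on the log2 scale. Without WT B its ratio was 1.77 and without WT A 0.81. In 3′F levels were 12.4 RPM for miR-7043-3p and 41.7 RPM for miR-3963, each above both WT libraries.

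Among the miRNAs lower in KO, miR-132 and miR-212 are made together from chr11:75173388-75173747 and are known as targets of the transcription factor CREB that are induced in activated myeloid cells. MiR-132-3p was at 29.7 RPM in WT A, 30.1 RPM in WT B and 18.8 RPM in KO, and miR-212-5p was at 24.9 RPM in WT A, 28.1 RPM in WT B and 13.7 RPM in KO. The WT libraries differed by 0.02 and 0.17, against KO ratios of -0.64 and -0.91. The arms below the expression minimum lay on the same side, miR-132-5p at 6.44, 5.70 and 4.40 RPM and miR-212-3p at 2.46, 2.89 and 2.25 RPM. In 3′F, miR-132-3p was at 32.4 and miR-212-5p at 29.0 RPM, above both WT libraries.

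MiR-147, whose hairpin overlaps an exon of AA467197 at chr2:122640803-122640881, is known to be induced by Toll-like receptor signaling in macrophages. MiR-147-5p was at 11.7 RPM in WT A, 15.9 RPM in WT B and 5.92 RPM in KO and miR-147-3p, under the minimum, at 8.96, 11.9 and 5.71 RPM, both below the WT libraries. MiR-155-5p, an inducible promoter of inflammatory gene expression, was at 71.3 RPM in WT A, 70.3 RPM in WT B and 55.2 RPM in KO, a ratio of -0.35 that did not pass 1.5-fold. MiR-9-5p, also known to be inducible by LPS, was at 4.06, 4.97 and 3.39 RPM. Of the 6 listed inflammatory miRNAs, 4 were expressed. Besides the deleted miR-146a-5p, miR-146b-5p lay above both WT libraries, and miR-132-3p and miR-155-5p lay below both, beside 37.8% and 39.4% of all expressed miRNAs.

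**Figure D4:**
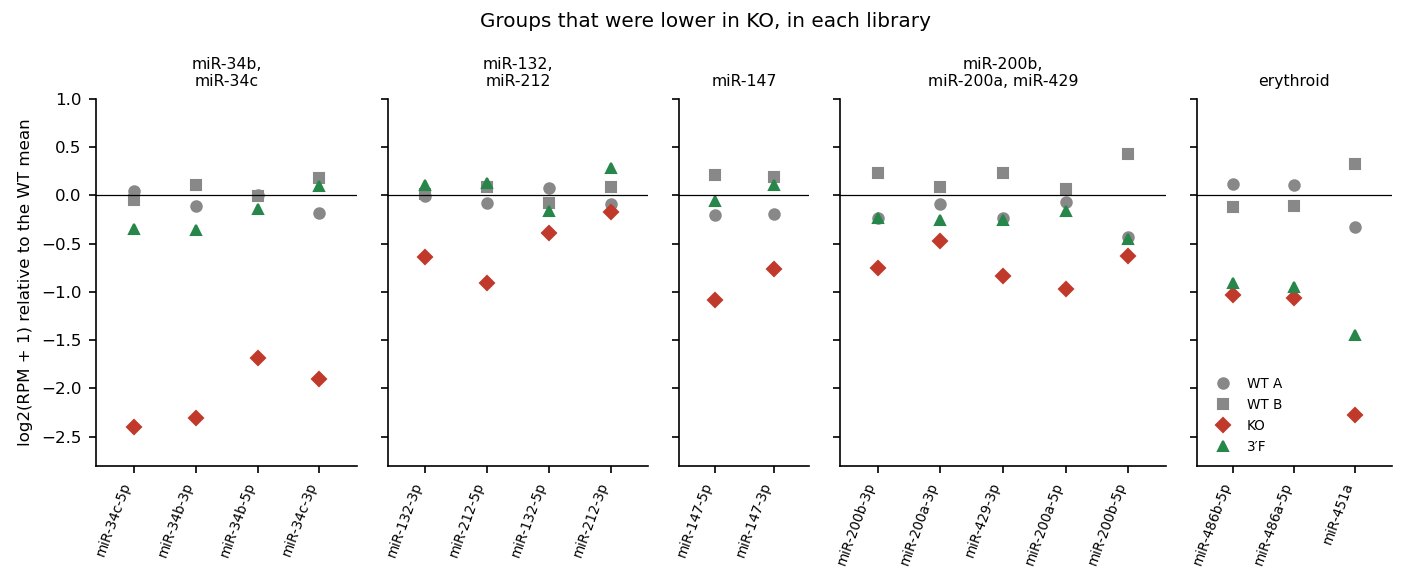
Level of each product with a mean of at least 1 RPM relative to the WT mean, in log2(RPM + 1), for 5 groups, with 1 point per library. KO lies below both WT libraries for each product drawn, and in the erythroid group 3′F does so as well.

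Both miR-34b and miR-34c, which lie on the minus strand at chr9:51103034-51103645 and are known as p53-responsive, were lower, with miR-34c-5p at 193 RPM in WT A, 180.1 RPM in WT B and 34.5 RPM in KO and miR-34b-3p at 10.5, 12.4 and 1.52 RPM. MiR-34a-5p, which has the same family seed but a separate gene, lay between the WT libraries at 163, 139 and 145 RPM, so that the family sum of -0.92 came from the cluster. MiR-504-5p, in an intron of Fgf13 on the X chromosome, was at 79.3 RPM in WT A, 94.7 RPM in WT B and 38.6 RPM in KO. MiR-342-3p, in an intron of Evl at chr12:108658620-108658718, was at 749 RPM in WT A, 732 RPM in WT B and 464 RPM in KO, the most abundant miRNA after miR-146a-5p among those past the threshold on the low side. Its 3′F value was 754 RPM. MiR-1964-3p was at 163, 191 and 91.7 RPM, miR-877-5p, from an intron of Abcf1, at 38.4, 38.2 and 20.6 RPM, and miR-874-3p, from an intron of Klhl3, at 18.5, 19.9 and 9.12 RPM. The log2 ratios of the first pair were -0.93 and -0.86, beside 0.22 and -0.01 for WT B over WT A.

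Some shifts too small for the 1.5-fold threshold were shared by the expressed members of a family. Both members of the miR-7 family, restraints on growth factor signaling, lay below both WT libraries: miR-7a-5p was at 8585 RPM in WT A, 8106 RPM in WT B and 6131 RPM in KO, and miR-7b-5p at 33.2, 31.3 and 22.8 RPM. The 3′F ratios of -0.37 and -0.40 were close to those of KO, -0.44 and -0.48, against the same WT libraries. In the miR-17 family, products of Myc-driven clusters that favor proliferation, 4 of 4 expressed members lay below both WT libraries, beside 39.4% of all expressed miRNAs, with ratios from -0.42 for miR-17-5p to -0.19 for miR-20a-5p. The 2 expressed miR-19 members had ratios of -0.39 and -0.27. Across the miR-17-92 cluster, 6 of 8 expressed products were below both WT libraries and 2 between, and the median was -0.23 in KO and -0.46 in 3′F. The WT B over WT A median for this cluster was 0.17.

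Members of 1 cluster did not always move together. MiR-23b-3p was at 6796 RPM in WT A, 6837 RPM in WT B and 5082 RPM in KO, a ratio of -0.42. From the same transcript, miR-27b-3p was at 104019 RPM in WT A, 99197 RPM in WT B and 105667 RPM in KO. MiR-24-3p had a ratio of 0.00, but mir-24-2 on chromosome 8 also makes it. The arm made only by the cluster of miR-23b, miR-24-1-5p, had a ratio of -0.10. MiR-23a-3p, which shares the seed of miR-23b-3p, had a ratio of -0.18. In the miR-29 family miR-29b-3p was at 40.1, 31.7 and 25.4 RPM and miR-29a-3p at 1288, 1381 and 1379 RPM, so that the sum, 0.04, did not follow miR-29b-3p (-0.48). MiR-101a-3p was at 556 RPM in WT A, 472 RPM in WT B and 820.0 RPM in KO, a ratio of 0.68, and miR-101b-3p lay between the WT libraries at 1243, 1151 and 1233 RPM. MiR-425-5p was at 248, 236 and 177 RPM while miR-191-5p, from the same transcript, was at 5460.1, 6146 and 6163 RPM.

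MiR-21a-5p made up 37.9% of the WT A counts, 34.1% of the WT B counts and 33.4% of the KO counts. Among the 10 most abundant in WT, the KO ratios ran from -0.29 for miR-221-3p to 0.51 for miR-99b-5p, and none passed 1.5-fold. For miR-222-3p the WT libraries were at 14619.9 and 22439 RPM and KO, at 14996 RPM, lay between them.

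Markers of cell identity were read in the same libraries. The myeloid miRNAs were present in each, with miR-223-3p at 1574, 1466 and 1636 RPM and miR-511-3p, encoded in the macrophage mannose receptor gene, at 76.8, 65.6 and 80.8 RPM in WT A, WT B and KO. MiR-142a-3p, general to blood cells, was at 1721, 1121 and 1115 RPM, with the WT libraries 1.5-fold apart. Erythroid miRNAs were lower in KO, 3 of 4 listed being expressed and 3 of these past 1.5-fold, beside 5.98% of all expressed miRNAs. Their sum was 169.7 RPM in WT A, 159 RPM in WT B and 70.3 RPM in KO, its most abundant member being miR-486b-5p at 76.5, 64.5 and 33.8 RPM, beside 74.1, 63.5 and 32.3 RPM for miR-486a-5p, which is known to have the same mature sequence, so that the 3 are 2 distinct products. MiR-451a was at 18.7, 30.0 and 4.09 RPM, and miR-144-3p had 7, 7 and 2 counts. The 3′F library had 80.3 RPM for the erythroid sum. The 3 lymphoid miRNAs summed to 425 RPM in WT A, 442 RPM in WT B and 474 RPM in KO. Of these, miR-181a-5p was at 245, 274 and 303 RPM, miR-326-3p at 178, 165 and 169 RPM and the low miR-150-5p at 2.93, 2.80 and 2.51 RPM, so that KO lay above, between and below the WT libraries in turn. Endothelial miR-126a-3p was at 10.7, 9.82 and 13.2 RPM. The 6 stromal miRNAs summed to 19.9 RPM in WT A, 21.2 RPM in WT B and 18.1 RPM in KO, and the 1 that was expressed, miR-10b-5p, was at 9.4, 10.4 and 10.6 RPM, with KO just above both WT libraries. Under the expression minimum, miR-143-3p was at 4.74, 4.91 and 2.10 RPM, miR-145a-5p had 3, 2 and 0 counts and miR-214-3p had 3, 5 and 2 counts. MiR-199a-3p, at 3.18, 3.71 and 3.63 RPM, and miR-199a-5p, at 2.17, 1.49 and 1.68 RPM, lay between the WT libraries in KO. The muscle list summed to at most 0.740 RPM in WT A, WT B or KO.

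The miR-200 family, defining for epithelial cells through repression of Zeb factors, was present in all 3 libraries. Of the 5 listed epithelial miRNAs 4 were expressed, and 4 of 4 lay below both WT libraries in KO, beside 39.4% of all expressed miRNAs, but of these miR-429-3p alone was past 1.5-fold. MiR-200b-3p, the most abundant, was at 512 RPM in WT A, 707 RPM in WT B and 358 RPM in KO, and miR-429-3p from the same cluster (chr4:156053905-156055750) was at 20.6 RPM in WT A, 29.0 RPM in WT B and 13.3 RPM in KO. MiR-200a-5p, from the same cluster but not on the list, was also past 1.5-fold, at 14.5, 16.0 and 7.33 RPM. The listed miR-200a-3p was at 54.0, 61.2 and 41.1 RPM and miR-200c-3p, from another chromosome, at 32.5, 44.6 and 28.3 RPM. The list summed to 619.9 RPM in WT A, 843 RPM in WT B and 441 RPM in KO, so that the WT libraries differed by 0.44 on the log2 scale and KO lay 0.489 below the nearer of them, while miR-141-3p, at 0.440, 0.480 and 0.630 RPM, lay above both WT libraries in KO at a level of few counts. The part of erythroid or epithelial cells in the other shifts was not tested.

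Both arms of a hairpin come from 1 transcript and are separate measurements. Both arms were expressed for 80 hairpins. Let-7c-5p, let-7f-5p, miR-16-5p, miR-24-3p and miR-181a-5p each come from 2 of these hairpins, and keeping 1 hairpin for each of them dropped 5 and left 75. Across these, the KO ratios of the 5p and the 3p arm had a Pearson r of 0.54 and a Spearman rho of 0.42, and the WT B over WT A ratios had 0.19 and 0.12. Without mir-139 the Pearson r of the KO ratios was 0.46. These are descriptions over hairpins that share libraries and depth. Both arms lay above both WT libraries for 18 of the 75 hairpins, both below for 13, and on opposite sides for 12. For the other 32 at least 1 arm lay between. Taken singly, 37.8% of all expressed miRNAs lay above both WT libraries and 39.4% below. Some pairs of unrelated arms would thus also fall on the same side, and the excess over this was not tested. Over all 80, both arms lay above for 21 and below for 14. Of the 6 hairpins with an arm past 1.5-fold, 5 had the other arm on the same side, the exception being mir-152.

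**Figure D5:**
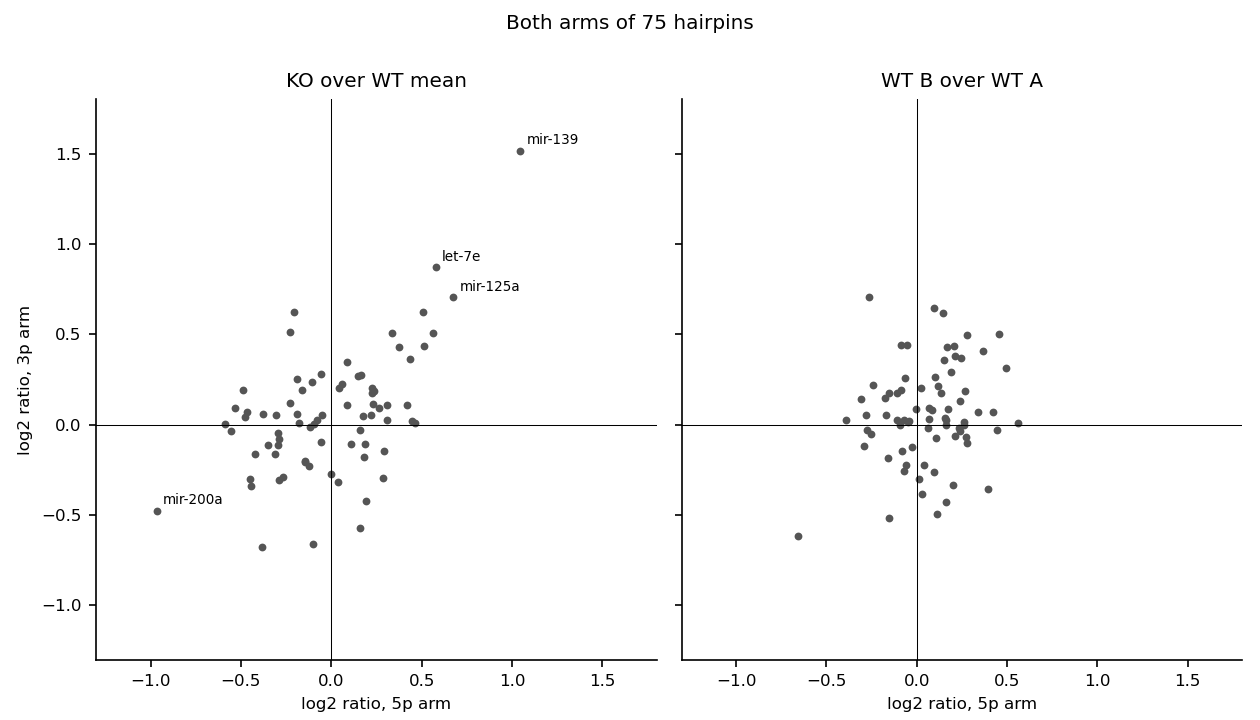
Log2 ratio of the 5p arm against that of the 3p arm for 75 hairpins with both arms expressed, 1 for each product made by several hairpins, for KO over the WT mean (left) and WT B over WT A (right). The KO points spread along the diagonal, with mir-139, let-7e and mir-125a at the upper end and mir-200a at the lower, and the WT points do so less.

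The ratios were also set against the length of the RefSeq sequence. The median KO ratio was 0.09 for the 44 miRNAs of 21 nt or less, 0.04 for the 126 of 22 nt and -0.21 for the 57 of 23 nt or more. The same classes had medians of 0.01, 0.09 and 0.11 for WT B over WT A. Across the 227 miRNAs other than miR-146a-5p, Spearman's rho of the ratio with length was -0.23 for KO and 0.02 for the WT pair. Against the same WT libraries it was -0.27 for 3′F. With GC content it was 0.04 for KO, 0.15 for the WT pair and 0.18 for 3′F. Past 1.5-fold, 4 of the 44 shortest miRNAs were higher in KO and 1 lower. The counts were 6 and 6 of the 126 of 22 nt, and 2 and 3 of the 57 longest. Over all 251 expressed miRNAs, 4.78% were higher and 5.98% lower. Of the lower ones, miR-34c-5p, miR-486a-5p, miR-486b-5p and miR-874-3p had no matched sequence and are missing from these counts. Each of the higher ones is included, so the classes do not weigh both directions equally.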

How the data were processed

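Small RNA libraries were made from Trizol RNA with the NEBNext Small RNA kit and size selected, and adapters were removed with cutadapt 1.8.3 per the submitters' processing notes. The aligner, counter, genome build and miRNA release are not given in the sources used here. The authors deposited estimated counts. Many are not whole numbers, and 99 of the 251 expressed miRNAs had such counts, for which the rule of division is not given in the sources used here. The authors also deposited RPM, each count per 1000000 counts of its library, summed over 2129 lines. Of these lines, 235 belonged to 85 miRNAs with several precursors. Library totals ran from 11410940 to 19087640 counts.

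From the deposited RPM values, log2(RPM + 1) ratios were taken against the mean of the WT log2 values. No p-value was computed, because KO has 1 library. The paper gives the letters A and B as identifiers of biological replicate cultures of BMDMs. Whether WT A and WT B also differ in animal or breeding line is not given in the sources used here. Families were summed over listed members, and clusters were summarized by the median of their expressed products, each at a log2 threshold of 0.32. Wilson intervals (95%) cover counting error only. Named were the miR-146 products, members of listed groups past that threshold, at most 3 members of other lists, the 12 largest rises and 12 largest falls past 1.5-fold, and the 10 most abundant miRNAs. Named outside this rule, after their values were seen, were miR-342-3p, the miR-7, miR-101a and miR-425 products, the further members of the let-7, miR-17 and miR-29 families, and the miR-200b-200a-429, miR-139, miR-582 and miR-147 groups. The full list of 6 stromal miRNAs and the named products under the expression minimum are also outside it. The members and lists were chosen with earlier results of these data known, and the lists came from general knowledge. Alternatives were scaling by TMM (edgeR), by size factors on rounded counts (DESeq2), to totals without miR-21a-5p and to totals of 1 line per miRNA, pseudocount 0.1, leaving out either WT library, minimums of 1, 100 and 0 RPM, thresholds of 0.32 and 1 on the log2 scale for single miRNAs and 1.5-fold for groups, and every line. The WT mean was first taken in RPM and was moved to the log2 scale after values had been seen, and the RPM form is kept as an added alternative. The functions were tested on simulated data. The tools were edgeR 4.0.16 and DESeq2 1.42.0 under R 4.3.3, and numpy 2.4.6, matplotlib 3.10.9, scipy 1.17.1 and pandas 2.3.3 under Python 3.11.15.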

Additional observations from a re-analysis of the deposited data

How the results depend on the processing

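No paired analysis was possible because KO shares only the replicate letter A with the WT libraries and no test was made. Under the 4 other scalings and the pseudocount of 0.1, 22 of the 27 miRNAs past 1.5-fold stayed past it, and miR-125a-5p, miR-152-3p, miR-132-3p, miR-342-3p and miR-429-3p did not in at least 1. The direction was kept by 27 of 27 under each of 7 alternatives. Of 13 listed groups past the group threshold, 12 stayed past it, the exception being the let-7b-let-7c-2 cluster. The scalings shifted the KO ratios by -0.06 to 0.04. With 1 WT library left out, miR-146a-5p ranged from -8.76 to -8.57, miR-146b-5p from 1.20 to 1.5, miRNAs higher in KO from 19 to 22, miRNAs lower from 21 to 24, families from 4 to 9 and clusters from 7 to 8, because a single reference is easier to exceed.

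Lower minimums admit more miRNAs by construction. At 1 RPM 21 were higher and 26 lower in KO and 24 lay apart in the WT pair, and with no minimum these were 21, 29 and 35. At 100 RPM they were 4, 4 and 5. At 2-fold they were 5, 4 and 0, and at 0.32 on the log2 scale 30, 34 and 58. At 1.5-fold, 3 clusters were past it. Taking the WT mean in RPM changed no ratio by more than 0.08. Some products under the expression minimum rest on few counts, and all KO values rest on 1 library.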

Other observations

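Some listed products under the expression minimum had few counts, and the values of these carry wide counting error. MiR-126a-5p, the partner of the endothelial miR-126a-3p, had 7 counts in WT A, 4 counts in WT B and 16 counts in KO. MiR-144-5p, from the erythroid cluster that also holds miR-451a, had, in this order, 14, 21 and 3 counts. MiR-181c-5p had 23, 2 and 18 counts, with KO between the WT libraries. MiR-133a-3p, known from muscle, had 0, 0 and 1 counts.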
